A study of Homo sapiens with 18 samples.

Results

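OVCAR3 cells incubated with IgA against the tetraspanin TSPAN7 were compared with untreated OVCAR3 cells from the same series. OVCAR3 is an established human line of high-grade serous ovarian carcinoma, and it was kept in RPMI medium with 2% serum. TSPAN7 IgA was added at 0.5 µg/ml for 24 h, and the untreated cells received no antibody. Each group had 3 libraries, so that 6 of the study's 18 libraries were compared, and a further 3 libraries of the same series came from cells given BDNF IgA at the same dose and time. Another series held 3 libraries each of non-specific IgA (natural human IgA), non-specific IgG and its own untreated cells, again at 0.5 µg/ml for 24 h where an antibody was given. A series here means the samples that share a count table. The count table named 55765 gene symbols, and the 18732 that passed a filter on low counts were followed. TSPAN7 IgA and BDNF IgA came from B cells of high-grade serous ovarian tumours that had been immortalised with Epstein-Barr virus, sorted with peptide tetramers and grown as single-cell clones, and the IgA was purified from their concentrated conditioned medium. Because untreated cells received no IgA and no such preparation, effects of TSPAN7 binding, of IgA of any specificity and of anything else in the preparation cannot be told apart in this comparison. All libraries came from 1 cell line. The labels do not say whether replicates were separate cultures, while the study calls replicates of its experiments in general biological or independent, and p-values measure the spread between these samples only.

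IgA is the main antibody of mucosal secretions. Epithelial cells take up its dimeric form through the polymeric immunoglobulin receptor, gene PIGR, carry it across the cell in vesicles and release it on the other side. TSPAN7 is a tetraspanin, a small protein that spans the membrane 4 times and organises other membrane proteins around it. Interferons of types I and III act through receptor-bound JAK kinases, which phosphorylate STAT proteins. With IRF9 these form a factor that binds the interferon-stimulated response element and switches on a large set of interferon-stimulated genes, many of which interfere with the copying, assembly or release of viruses.

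Many of the largest rises were in interferon-stimulated genes, and chemokines rose as well. To show the elements that such genes carry, 7 promoters are printed. Each runs from 250 bases before to 50 bases after the transcription start, 5′ to 3′ on the strand of the gene, and comes from RefSeq on GRCh38.p14. Capitals mark matches on either strand to the core of the interferon-stimulated response element, GAAANNGAA, in the 5 genes of the interferon lists with the highest stable fold changes, or to the NF-kB motif GGNNNTTCC in the 2 genes of the CXC and CC chemokine list with the highest stable fold changes. Promoter coordinates are on GRCh38.p14, and gene positions further on are on GRCh37.
IFI44L, chr1:78620198-78620497, plus strand: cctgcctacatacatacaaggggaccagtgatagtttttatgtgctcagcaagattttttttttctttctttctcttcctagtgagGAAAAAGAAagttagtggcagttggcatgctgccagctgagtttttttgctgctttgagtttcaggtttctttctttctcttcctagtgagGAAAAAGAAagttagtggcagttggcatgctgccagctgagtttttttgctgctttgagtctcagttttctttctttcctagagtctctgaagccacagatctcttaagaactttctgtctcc
IFI27, chr14:94110486-94110785, plus strand: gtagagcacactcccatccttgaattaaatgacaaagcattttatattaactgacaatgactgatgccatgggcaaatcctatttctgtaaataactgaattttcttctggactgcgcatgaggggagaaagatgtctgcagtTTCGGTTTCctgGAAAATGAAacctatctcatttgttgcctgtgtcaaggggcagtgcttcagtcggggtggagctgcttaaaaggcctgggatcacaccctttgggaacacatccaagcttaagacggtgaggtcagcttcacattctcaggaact
ISG15, chr1:1013247-1013546, plus strand: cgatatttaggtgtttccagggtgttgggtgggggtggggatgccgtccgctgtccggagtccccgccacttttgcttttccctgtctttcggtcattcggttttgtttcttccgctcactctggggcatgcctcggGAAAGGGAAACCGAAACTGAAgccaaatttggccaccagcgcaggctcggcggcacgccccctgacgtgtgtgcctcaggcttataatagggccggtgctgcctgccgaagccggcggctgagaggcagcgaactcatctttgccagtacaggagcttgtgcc
IFI6, chr1:27672143-27672442, minus strand: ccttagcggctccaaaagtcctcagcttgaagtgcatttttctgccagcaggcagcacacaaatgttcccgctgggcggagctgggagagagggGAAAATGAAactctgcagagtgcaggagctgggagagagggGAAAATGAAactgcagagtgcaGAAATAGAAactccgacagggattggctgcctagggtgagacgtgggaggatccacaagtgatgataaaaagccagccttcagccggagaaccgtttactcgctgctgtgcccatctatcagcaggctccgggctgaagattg
XAF1, chr17:6755796-6756095, plus strand: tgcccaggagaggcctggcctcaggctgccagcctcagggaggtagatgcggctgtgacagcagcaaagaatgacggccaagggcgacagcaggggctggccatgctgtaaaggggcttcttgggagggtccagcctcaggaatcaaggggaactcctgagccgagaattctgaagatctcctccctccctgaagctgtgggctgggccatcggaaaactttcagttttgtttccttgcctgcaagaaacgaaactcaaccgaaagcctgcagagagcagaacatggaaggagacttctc
IL8 (CXCL8), chr4:73740319-73740618, plus strand: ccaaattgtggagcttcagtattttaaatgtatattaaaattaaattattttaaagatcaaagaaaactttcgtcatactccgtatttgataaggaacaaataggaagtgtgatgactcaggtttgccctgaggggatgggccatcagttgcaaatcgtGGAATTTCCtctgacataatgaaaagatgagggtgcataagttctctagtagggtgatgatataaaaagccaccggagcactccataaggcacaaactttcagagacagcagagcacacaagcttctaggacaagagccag
CCL20, chr2:227813592-227813891, plus strand: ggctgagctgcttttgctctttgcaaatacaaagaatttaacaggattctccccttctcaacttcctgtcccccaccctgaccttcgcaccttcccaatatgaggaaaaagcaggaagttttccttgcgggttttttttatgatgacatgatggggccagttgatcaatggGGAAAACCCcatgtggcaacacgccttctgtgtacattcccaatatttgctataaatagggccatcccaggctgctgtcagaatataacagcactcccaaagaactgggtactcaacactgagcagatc

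IFI44L held 2 matches to the response element core, starting 164 and 73 bases before the transcription start. IFI27 held 2, of which 1 was on the minus strand, and ISG15 and IFI6 held 3 each, with the 3 of ISG15 overlapping at their ends. XAF1 held no match in its window. Of the genes tested, 12004 had a promoter in the table, and 6.51% of those held at least 1 match, against 8.29% of all 27305 promoters. A rise or fall is called stable below where it was called with all libraries and again without each of the 6 compared in turn. Among stable rises of more than 2-fold, 16 of 29 with a promoter held a match (55.2%). Among stable rises in the interferon lists it was 35 of 53 (66%), and among interferon list genes that were not called 11 of 36 (30.6%). Among called rises outside the interferon lists it was 7.35%, near the share over all genes tested. The lists were chosen with earlier results of these data known. The list genes not called include receptors, kinases and adaptors such as IFNGR2, JAK1 and MAVS. These shares are therefore a description and not a test. The gamma-activated site, TTCNNNGAA, was in 17.0% of the promoters of stable rises in the interferon lists and in 7.88% of all promoters. In IL8 the same bases match the NF-kB motif read on either strand, and in CCL20 the match lies on the minus strand. The NF-kB motif was in the promoters of all 5 genes of that chemokine list with a stable rise. This loose pattern was in 20.1% of all promoters, in 22.7% of those of genes tested and in 22.8% of those of all called rises. A match is a description of the letters in this window and not a measured binding site.

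The 9 libraries of the series held between 39254350 and 47381836 counts, with between 18012 and 18485 genes at 10 counts or more, and mitochondrial genes supplied 8.6% to 10.2% of the counts of each. No 2 replicates agreed within sampling noise, with a chi-square per degree of freedom between 3.91 and 12.2, so no library was a copy of another. Normalised counts below are raw counts brought to 1 common library size, the mean of the TMM-scaled sizes of the 9 libraries. The carcinoma label was matched by its markers. PAX8, the transcription factor of Müllerian tumours, had a mean of 18110 ± 301 normalised counts in untreated cells, EPCAM, an epithelial surface protein, 8675 ± 385 and KRT18, an epithelial keratin, 29700 ± 1330 (± SD, n = 3), and their changes with TSPAN7 IgA were not called (log2 fold changes 0.060 ± 0.040, -0.054 ± 0.064 and -0.10 ± 0.062, ± SE as for all log2 values written so below). Of the 17 B and plasma cell markers 3 passed the filter on low counts, and the immunoglobulin genes IGHA1, IGHA2, IGHG1, IGHM, IGKC and IGLC2 were at 0 counts in all 6 libraries. Markers of T and NK cells, myeloid cells, fibroblasts and endothelium gave a further 14 genes tested. None of the 17 tested markers of other cells was called by edgeR or by DESeq2, with 1 higher and 2 lower at an unadjusted p under 0.05. CD3D, CD3E, CD163 and TYROBP were also at 0 in all 6 libraries.

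TSPAN7 itself was close to the limit of what these libraries could measure. It had 25, 20 and 15 raw counts with TSPAN7 IgA and 22, 30 and 24 in untreated cells, and the groups overlapped (log2 fold change -0.25, SE 0.32, edgeR adjusted p = 0.717). PIGR, the receptor that carries IgA across epithelia, had 49, 38 and 20 raw counts with TSPAN7 IgA and 73, 88 and 73 in untreated cells. It was called lower (log2 fold change -1.03, SE 0.30, edgeR adjusted p = 0.0354), but the call was lost when TSPAN7 IgA replicate 3 was left out, and the list of antibody receptors and transcytosis genes then had 0 called lower in place of 2 of 12 tested. RAB3B, a small GTPase of regulated vesicle traffic, was the list's stable rise (0.34 ± 0.068). FCGRT, the neonatal Fc receptor, had -0.31 ± 0.15 without a call, and FCAR, the myeloid IgA receptor, and FCAMR, a receptor for IgA and IgM, were at 0 counts in all 6 libraries.

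Across all 18732 genes, 836 rose (4.46%) and 764 fell (4.08%) with TSPAN7 IgA, called at an edgeR p under 0.05 after Benjamini-Hochberg adjustment. Most changes were small. The median size among called genes was 0.30 on the log2 scale in the higher set and 0.29 in the lower, 67 and 49 genes passed 2-fold, and 9 and 7 passed 4-fold. In 830 of the rises and 756 of the falls the libraries of the groups did not overlap. Absence of overlap was also found for 28.4% of all genes tested. Many single calls rested on the full set of libraries: without TSPAN7 IgA replicate 2 there were 429 higher and 328 lower, and leaving out untreated replicate 1 gave 533 higher and 510 lower, replicate 2 554 and 441, and replicate 3 550 and 433. Without TSPAN7 IgA replicate 3 there were 559 and 436, and without replicate 1 689 and 682. A gene is therefore named as stable here where it was called, in the same direction, in each of these 6 fits. That held for 354 genes higher (1.89% of those tested) and 259 lower (1.38%), among them 46 rises and 19 falls of more than 2-fold. The genes below rose or fell stably unless stated otherwise. Counts in lists are of called genes, to be read against 4.46% higher and 4.08% lower among all genes. Where a list had 0 called in a direction by edgeR, the number in that direction at an unadjusted p under 0.05 follows as unadjusted, and DESeq2 also called 0 unless stated.

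**Figure D1:**
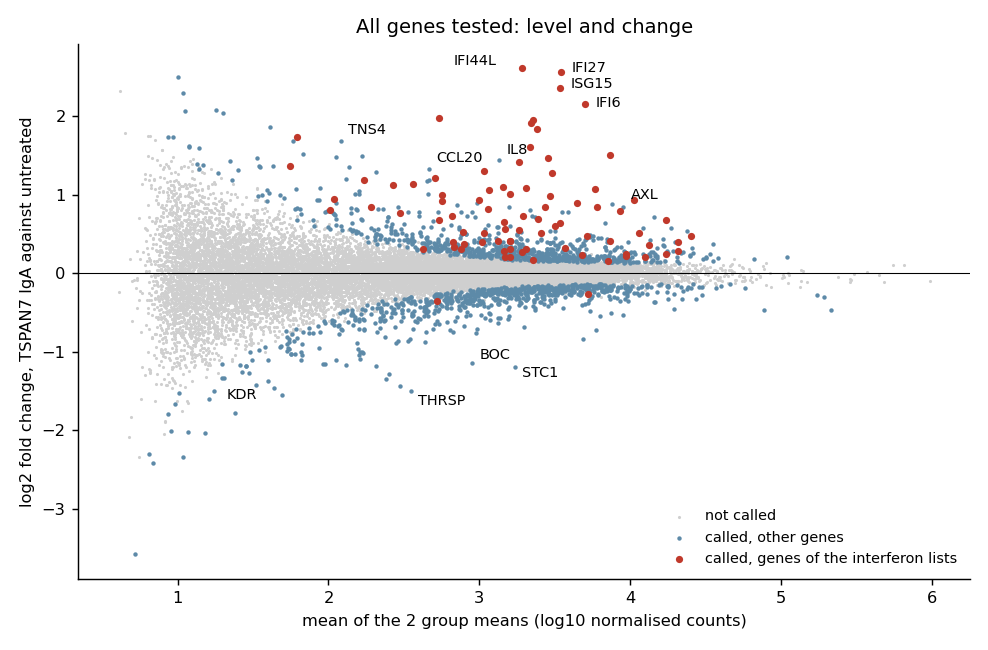
Each point is 1 of the 18732 genes tested, with the mean of both group means in log10 normalised counts on the horizontal axis and the log2 fold change of TSPAN7 IgA against untreated cells on the vertical axis. Grey points were not called, blue points were called and red points were called genes of the interferon lists, which form the upper edge at high counts from IFI44L (2.61) down to IFI6 (2.16), while THRSP and STC1 lie on the lower edge at -1.495 and -1.19.

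Interferon-stimulated genes rose as a broad set. The 12 interferon lists held 134 distinct genes that were tested, of which 82 were called higher, 2 lower and 50 not called, with 69 of the rises stable, and their median log2 fold change was 0.36 against -7e-04 over all genes. They supplied 13 of the 20 largest stable rises and 25 of the 46 stable rises above 2-fold.

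The ligands themselves had few counts or none. IFNB1, the type I interferon that most cells can make, had 0, 0 and 0 raw counts with TSPAN7 IgA and 4, 1 and 1 in untreated cells. IFNL1, a type III interferon, had 1, 6 and 4 against 4, 0 and 0, and IFNA1 and IFNG were at 0 in all 6 libraries. IFNE, an epithelial type I interferon of the female reproductive tract, was the only ligand to pass the filter, with 76, 92 and 129 raw counts against 132, 116 and 127 and no call (log2 fold change -0.23, SE 0.19, edgeR adjusted p = 0.517). A change in the others was not detectable at this depth.

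Among the receptors and their kinases, 1 of 9 rose and 1 fell. IFNGR1, the ligand-binding chain of the interferon gamma receptor, rose with a log2 fold change of 0.40 ± 0.059, and IFNAR1, a chain of the type I receptor, fell by 0.26 (SE 0.047). IFNGR2, the partner of IFNGR1, and the kinases JAK1 and TYK2 were not called (0.023 ± 0.055, 0.12 ± 0.041 and -0.048 ± 0.059). IRF7, the amplifier of type I interferon production, had 812, 728 and 735 normalised counts with TSPAN7 IgA and 386, 388 and 368 in untreated cells. Its groups did not overlap (log2 fold change 1.00, SE 0.084, edgeR adjusted p = 4.79e-08). IRF9, a DNA-binding partner of STAT proteins, had a log2 fold change of 0.95 ± 0.23, STAT2 0.27 ± 0.071 and IRF1 0.17 ± 0.050, and all 3 were called without being stable. Of 13 factors tested 5 were called higher, and 2 without TSPAN7 IgA replicate 1.

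The sensors that detect viral nucleic acid were higher too. In this list 8 of 15 were called higher and 0 lower (unadjusted 0). DHX58, DDX58 and IFIH1, which encode the RIG-I family of RNA receptors, rose by 1.18 ± 0.15, 0.73 ± 0.065 and 0.93 ± 0.078 on the log2 scale. IFIH1 had 1256, 1357 and 1303 normalised counts with TSPAN7 IgA and 724, 729 and 601 in untreated cells. EIF2AK2, the kinase PKR that stops translation when it binds double-stranded RNA, rose by 0.68 ± 0.043, and IFI16, a sensor of DNA, by 0.55 ± 0.075. The adaptor MAVS, on which the RIG-I family signals, was not called (-0.0081 ± 0.052), and neither was TLR3, the endosomal RNA receptor (0.24 ± 0.12).

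Of the OAS family all 4 members rose, and 1 further gene of this list of 5 was called lower. OAS enzymes make oligoadenylates when they meet double-stranded RNA. OAS2 (chromosome 12, 113416200 to 113449528, GRCh37) had 3823, 3568 and 3064 normalised counts with TSPAN7 IgA and 940.1, 1129 and 724 in untreated cells (log2 fold change 1.91, SE 0.12, edgeR adjusted p = 5.22e-10). OAS3 rose by 1.5 ± 0.060, OAS1 by 1.47 ± 0.071 and OASL, which lacks the enzymatic activity, by 1.13 ± 0.17.

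Of the IFIT and IFITM genes 6 of 7 rose. IFIT proteins bind viral RNA and IFITM proteins hinder the fusion of viral and cell membranes. IFIT1 (chromosome 10, 91152303 to 91166244) had 3933, 3814 and 3487 normalised counts against 1094, 1163 and 903 (log2 fold change 1.83, SE 0.079, edgeR adjusted p = 5.71e-13). IFIT3, IFIT2 and IFIT5 rose by 1.28 ± 0.067, 1.06 ± 0.078 and 0.82 ± 0.059. IFITM1 rose by 1.60 ± 0.077 while IFITM2 was not called (0.081 ± 0.046), and since the IFITM genes are close copies of each other their counts may be shared or lost between them.

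Of 26 antiviral effectors tested 23 were called higher, 22 of them stably, and the median log2 fold change was 1.00. IFI44L (chromosome 1, 79085587 to 79111830), the largest stable rise of the whole comparison, had 3235, 3394 and 3253 normalised counts with TSPAN7 IgA and 547, 606 and 470.5 in untreated cells. That is a 6.10-fold rise (log2 fold change 2.61, SE 0.089, edgeR adjusted p = 1.37e-14). IFI27 (chromosome 14, 94571182 to 94583032) rose from 1011 ± 166 to 5972 ± 208 normalised counts (mean ± SD, n = 3), a log2 fold change of 2.57 ± 0.093. IFI6, which restrains apoptosis, rose by 2.16 ± 0.069, and XAF1, an antagonist of the apoptosis inhibitor XIAP, by 1.97 ± 0.11. MX1 (chromosome 21, 42791947 to 42841998), a dynamin-like GTPase that traps viral nucleocapsids, had 3691, 3736 and 3409 normalised counts against 942, 1081 and 797 (log2 fold change 1.94, SE 0.077, edgeR adjusted p = 1.65e-13). BATF2, an AP-1 family factor induced by interferon, rose by 1.36 ± 0.24, RSAD2, the antiviral enzyme viperin, by 1.13 ± 0.14, and CMPK2, a nucleotide kinase encoded beside it, by 0.76 ± 0.11. The 3 genes of this list that were not called were APOL1, CMTR1 and RTP4, with log2 fold changes of 0.041 ± 0.068, 0.10 ± 0.060 and 0.29 ± 0.38.

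Of the ISG15 conjugation genes 5 of 6 rose. ISG15 (chromosome 1, 936518 to 949920), a ubiquitin-like protein that is joined to other proteins, had 5584, 6025 and 5478 normalised counts with TSPAN7 IgA and 1151, 1196 and 992 in untreated cells (log2 fold change 2.36, SE 0.061, edgeR adjusted p = 1.59e-16). Its conjugating enzyme UBE2L6 rose by 0.69 ± 0.057, its ligase HERC5 by 0.61 ± 0.060 and the related HERC6 by 0.84 ± 0.061. USP18, which removes ISG15 and damps the type I receptor, rose by 0.72 ± 0.082, and its activating enzyme UBA7 was not called (0.28 ± 0.12). Of the PARP, SP100 and TRIM genes 10 of 14 rose, with TRIM22 at 1.21 ± 0.10, PARP9 at 0.79 ± 0.048, SP110 at 0.65 ± 0.054, SP100, a component of nuclear bodies, at 0.64 ± 0.048 and TRIM14 at 0.56 ± 0.073.

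Genes known mainly from the response to interferon gamma had a median log2 fold change of 0.28. Of the guanylate-binding protein and interferon gamma list 8 of 15 were called higher and 4 stably, and only 4 were called without untreated replicate 3. CXCL10, a chemokine that attracts activated T cells, led them with 87.9, 106 and 92.0 normalised counts against 36.5, 22.2 and 27.1 (log2 fold change 1.74, SE 0.22, edgeR adjusted p = 1.77e-05). GBP1, GBP2 and IDO1, which degrades tryptophan, rose by 0.41 ± 0.068, 0.40 ± 0.082 and 0.41 ± 0.080. The MHC class II genes HLA-DRA and CD74 and their activator CIITA were not called (-0.56 ± 0.18, -0.13 ± 0.093 and -0.22 ± 0.17), and CXCL9 was at 0 counts in all 6 libraries. Of 9 MHC class I chains 5 were called higher, and 3 without TSPAN7 IgA replicate 2. HLA-B, HLA-F and B2M, the shared light chain, rose by 0.47 ± 0.065, 0.33 ± 0.069 and 0.28 ± 0.057. The classical chains are near copies in sequence, so reads may be split among them. Of 14 genes that make and load the peptides 7 were called higher. TAP1, a chain of the peptide transporter, had 1379, 1225 and 1194 normalised counts against 864, 929 and 863 (log2 fold change 0.52, SE 0.074, edgeR adjusted p = 8.87e-05), TAP2 rose by 0.31 ± 0.056, the proteasome activators PSME1 and PSME2 by 0.22 ± 0.049 and 0.32 ± 0.047, and NLRC5, the transactivator of class I genes, by 0.37 ± 0.080.

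**Figure D2:**
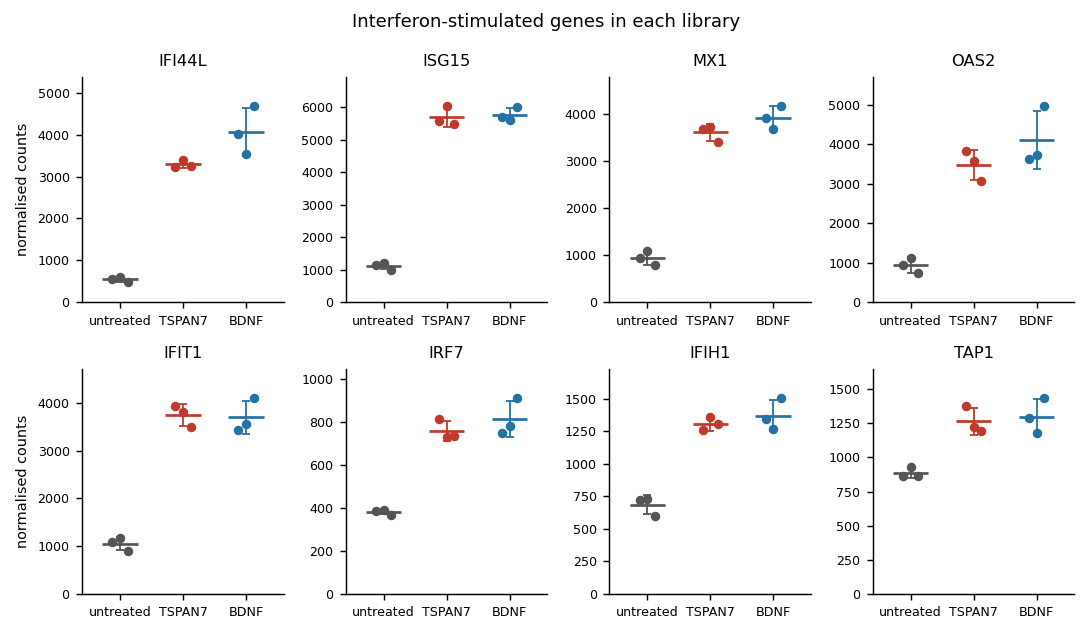
Normalised counts of 8 interferon-stimulated genes in each library of the series, with the mean (bar) and SD (error bars) of the 3 libraries of untreated cells (grey), TSPAN7 IgA (red) and BDNF IgA (blue), each vertical axis starting at 0. In every panel the TSPAN7 IgA libraries lie above the 3 untreated libraries, and they overlap the BDNF IgA libraries except for IFI44L, where they lie below them.

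The chemokines formed the other coherent rise. Of 10 tested 6 were called higher and 0 lower (unadjusted 0), with a median log2 fold change of 0.74. IL8 (chromosome 4, 74606236 to 74609433), the main attractant of neutrophils, had 1751, 2221 and 1962 normalised counts with TSPAN7 IgA and 738, 706 and 732 in untreated cells (log2 fold change 1.45, SE 0.079, edgeR adjusted p = 3.91e-11). CCL20 (chromosome 2, 228670455 to 228682280), which attracts lymphocytes and dendritic cells that carry CCR6, had 605, 761 and 615 against 240.1, 295 and 257 (log2 fold change 1.32, SE 0.13, edgeR adjusted p = 4.90e-07). CXCL1, CXCL2 and CXCL3, which share the neutrophil receptor with IL8, rose by 0.71 ± 0.057, 0.90 ± 0.078 and 0.77 ± 0.085. CCL5 had a log2 fold change of 1.27 ± 0.59 without a call, and CCL2, the monocyte attractant, was at 0 counts in all 6 libraries.

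Of the interleukins and growth factor cytokines 8 of 17 were called higher and 0 lower (unadjusted 1). IL1A, an alarm cytokine of epithelia, rose by 1.48 ± 0.18 and TNF by 1.09 ± 0.22. IL6 had 172, 233 and 188 normalised counts against 74.0, 82.9 and 75.0 (log2 fold change 1.35, SE 0.22, edgeR adjusted p = 2.98e-04). CSF1, which sustains macrophages, and LIF rose by 0.71 ± 0.064 and 0.43 ± 0.063. IL1B had 19, 11 and 22 raw counts against 5, 5 and 3, and its call was not stable. The feedback inhibitors of NF-kB, themselves NF-kB targets, were higher as well: TNFAIP3 by 0.77 ± 0.073, BIRC3 by 0.71 ± 0.14, NFKBIA by 0.42 ± 0.048 and NFKBIZ by 0.35 ± 0.052, with 5 of 15 genes of this list called higher and 0 lower (unadjusted 0). The subunits RELA and NFKB1 were not called (-0.049 ± 0.047 and 0.11 ± 0.061). Acute-phase and complement genes gave 1 call in each direction among 16, neither stable, and C3 had -0.038 ± 0.073.

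Ligands and adhesion molecules that T cells meet gave 4 of 10 called higher, and 2 without untreated replicate 1. LGALS9, galectin-9, rose by 0.59 ± 0.10 and CD47, a signal that restrains phagocytes, by 0.25 ± 0.050. CD274, which encodes PD-L1, had 55, 49 and 52 raw counts with TSPAN7 IgA and 24, 32 and 26 in untreated cells. The groups did not overlap, but its call was not stable (log2 fold change 1.02, SE 0.26, edgeR adjusted p = 0.0144).

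Kinase signalling genes changed in parts. DUSP5, the nuclear phosphatase of ERK, had 1514, 1703 and 1604 normalised counts with TSPAN7 IgA and 983, 1128 and 1088 in untreated cells (log2 fold change 0.59, SE 0.073, edgeR adjusted p = 1.45e-05). DUSP1 and DUSP8 rose by 0.53 ± 0.10 and 0.51 ± 0.11, while DUSP4 and DUSP6, which ERK activity normally induces, were not called (0.059 ± 0.063 and -0.18 ± 0.073). Of the 14 ERK output genes 5 were called higher and 2 lower, and 3 higher without TSPAN7 IgA replicate 2. CCND1, cyclin D1, EPHA2 and IER3 rose by 0.40 ± 0.056, 0.33 ± 0.049 and 0.25 ± 0.046, whereas ETV1 fell by 0.65 (SE 0.11) and EPHA4 by 0.36 (SE 0.072). The direction was therefore mixed within this list, whose median was 0.023.

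Immediate-early and AP-1 genes gave 9 of 17 called higher and 0 lower (unadjusted 0), and 5 without untreated replicate 1. ATF3, FOSB and FOS rose by 0.82 ± 0.13, 0.73 ± 0.067 and 0.42 ± 0.050, KLF6 by 0.38 ± 0.063 and JUN by 0.24 ± 0.045, while EGR1 and MYC were not called (0.10 ± 0.049 and 0.10 ± 0.071). Among EGF receptor genes 4 of 10 were called higher and 0 lower (unadjusted 2). EREG, the ligand epiregulin, rose by 0.77 ± 0.17, EGFR by 0.29 ± 0.047 and NRG1, which activates ERBB3 and ERBB4, by 0.60 ± 0.11, from 1278 ± 70.6 to 1931 ± 187 normalised counts (mean ± SD, n = 3).

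The activin and TGF-beta axis had rises and falls. INHBA, the subunit of activin A, had 269.6, 266 and 349 normalised counts against 112, 126 and 124 (log2 fold change 1.28, SE 0.18, edgeR adjusted p = 8.08e-05). FST, the secreted inhibitor of activin, fell by 0.76 (SE 0.083), and INHBB, the subunit of activin B, by 0.57 (SE 0.10). BMP7 and TGFB2 fell by 0.36 and 0.33. LRRC32, which displays latent TGF-beta at the cell surface, had 16, 17 and 30 raw counts against 57, 52 and 67 and was called without being stable (-1.37 ± 0.31). In the whole list of 20, 3 were called higher and 5 lower.

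Other receptor families moved in single members. KDR, the main VEGF receptor, had 25, 25 and 16 raw counts with TSPAN7 IgA and 63, 56 and 78 in untreated cells (log2 fold change -1.47, SE 0.26, edgeR adjusted p = 7.67e-04). EFNB1 rose by 0.30 ± 0.059 and EPHB6, an Eph receptor without kinase activity, fell by 0.70 (SE 0.12), and 1 of 16 ephrins and Eph receptors was called higher and 2 lower. Of 25 tetraspanins tested 3 rose, TSPAN2 by 0.50 ± 0.10, UPK1B by 0.33 ± 0.062 and TSPAN4 by 0.25 ± 0.058, and 1 was called lower without being stable. Of 7 neurotrophin genes BDNF rose by 0.67 ± 0.12.

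**Figure D3:**
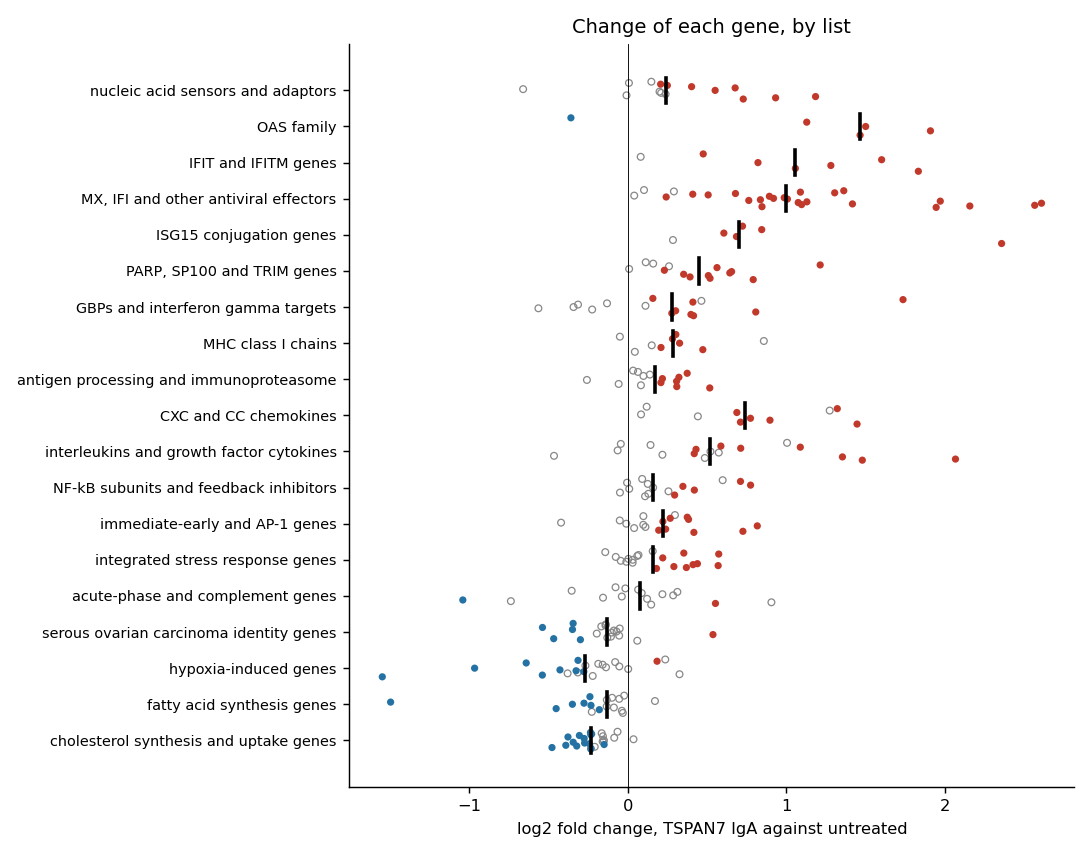
Log2 fold change of TSPAN7 IgA against untreated cells for each tested gene of 19 lists, with called rises in red, called falls in blue, genes that were not called as open circles and the list median as a black bar. The OAS, IFIT and MX lists lie furthest to the right, with medians of 1.46, 1.06 and 1.00. The OAS row holds 5 genes, of which 4 were called higher and 1 lower. The cholesterol list lies to the left with 15 of 24 genes called lower.

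Of 24 genes of cholesterol synthesis and uptake 15 were called lower and 0 higher (unadjusted 0), 9 of the falls being stable, with a median log2 fold change of -0.23, and 10 were called lower without TSPAN7 IgA replicate 2. MVK, mevalonate kinase, fell by 0.48 (SE 0.090), IDI1 by 0.39 (SE 0.056), DHCR7, the last enzyme of the pathway, by 0.38 (SE 0.066) and LSS by 0.34 (SE 0.049). Of 17 fatty acid synthesis genes 7 were called lower and 0 higher (unadjusted 1), and 4 without TSPAN7 IgA replicate 2. THRSP (chromosome 11, 77774907 to 77779397), a nuclear factor that raises lipogenic enzymes, had 183, 177 and 194 normalised counts against 482, 435 and 640.2 (log2 fold change -1.495, SE 0.16, edgeR adjusted p = 1.18e-06). SCD, the main fatty acid desaturase, had 17410, 15770 and 16380 normalised counts with TSPAN7 IgA and 22020, 22600 and 23150 in untreated cells (log2 fold change -0.45, SE 0.071, edgeR adjusted p = 2.79e-04). FADS2 fell by 0.35 (SE 0.061), while FASN was called without being stable (-0.18 ± 0.047).

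Hypoxia-induced genes were lower in part. Of 21 tested 8 were called lower and 1 higher, and 5 lower without untreated replicate 3. NDRG1 fell by 0.54 (SE 0.094), PDK1, which keeps pyruvate from the mitochondrion, by 0.43 (SE 0.071), BNIP3L by 0.33 (SE 0.065) and DDIT4, an inhibitor of mTORC1, by 0.31 (SE 0.052). CA9, a carbonic anhydrase that is a classical marker of low oxygen, had 24, 23 and 25 raw counts against 58, 56 and 115 and was called without being stable. SLC2A1 and VEGFA were not called (0.0027 ± 0.048 and -0.19 ± 0.061), and of 17 glycolysis enzymes 2 were called lower, neither stably.

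Genes that mark serous ovarian carcinoma gave 5 of 18 called lower and 1 higher. MUC16, the gene of the serum marker CA125, had 63140, 64540 and 65110 normalised counts with TSPAN7 IgA and 86100, 95580 and 84830 in untreated cells (log2 fold change -0.47, SE 0.075, edgeR adjusted p = 3.43e-04). All TSPAN7 IgA libraries lay below all untreated ones. MUC1 fell by 0.54 (SE 0.10), the homeobox gene EMX2 by 0.34 (SE 0.053) and WT1 by 0.30 (SE 0.049). KRT7 rose by 0.54 ± 0.050, while PAX8 and ESR1 were not called (0.060 ± 0.040 and -0.14 ± 0.074). In the motile cilia list 2 of 10 were called lower. CAPS, calcyphosin, fell by 1.17 (SE 0.15), and FOXJ1, the master factor of motile cilia, had 6, 11 and 9 raw counts against 16, 31 and 33 without a stable call.

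Adhesion and matrix genes did not move one way. Among epithelial-mesenchymal genes FN1, fibronectin, rose by 0.44 ± 0.069 and ESRP2, an epithelial splicing factor, fell by 0.31 (SE 0.055), and VIM and CDH1 were not called (-0.11 ± 0.047 and -0.087 ± 0.069). CLDN1 and OCLN, proteins of the tight junction, rose by 0.64 ± 0.057 and 0.30 ± 0.061, and CGN, cingulin, fell by 0.27 (SE 0.058). TIMP2 and PLAUR, the urokinase receptor, rose by 0.29 ± 0.046 and 0.27 ± 0.063. Of 24 death genes 4 were called higher and 3 lower, and 2 higher without untreated replicate 1. The proapoptotic BIK and PMAIP1 rose by 1.36 ± 0.31 and 0.42 ± 0.062, while CFLAR, an inhibitor of caspase-8, fell by 0.28 (SE 0.048).

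Of 19 genes of the integrated stress response 9 were called higher and 0 lower (unadjusted 0). SLC7A5 and SLC3A2, which together form an amino acid exchanger, rose by 0.57 ± 0.094 and 0.35 ± 0.061, ASNS, asparagine synthetase, by 0.29 ± 0.057, and the regulators SESN2 and TRIB3 by 0.44 ± 0.10 and 0.41 ± 0.080. ATF4, the factor that drives them, was called higher by 0.18 ± 0.042 without being stable. Chaperones of the endoplasmic reticulum gave 2 of 16 called higher, neither stable, and HSPA5 had 0.066 ± 0.044. Of 14 heat shock genes HSPB1 rose by 0.37 ± 0.050, of 3 metallothioneins tested MT2A by 0.30 ± 0.049, and of 16 NRF2 targets 1 was called, not stably. Of 14 p53 targets TP53INP1 fell by 0.60 (SE 0.085) and CDKN1A was not called (0.013 ± 0.14).

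Growth genes gave few called rises, while called falls were not rarer than among all genes. Of the 176 tested genes of DNA replication, mitosis, histones, ribosomes, ribosome biogenesis and respiration 3 were called higher and 12 lower, or 0 and 3 stably, against 4.46% and 4.08% called among all genes. The stable falls were CENPE, a kinesin of the mitotic spindle, by 0.24 (SE 0.053), HIST1H4C by 0.30 (SE 0.056) and MT-ND6, the gene on the light strand of the mitochondrial genome, by 0.28 (SE 0.061). Histone genes are near copies of each other and their counts may be shared. PCNA and MKI67 were not called (0.13 ± 0.061 and -0.094 ± 0.065).

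Some of the largest changes were in genes outside these lists. TNS4 (chromosome 17, 38632080 to 38657875), a tensin that links integrins to signalling, had 203, 173 and 175 normalised counts with TSPAN7 IgA and 57.7, 61.7 and 52.4 in untreated cells (log2 fold change 1.68, SE 0.18, edgeR adjusted p = 1.73e-06). HRASLS2, a phospholipid-modifying enzyme, rose by 1.68 ± 0.23, HSH2D, an adaptor of lymphoid cells, by 1.52 ± 0.24, MYPN, a sarcomeric protein, by 1.49 ± 0.25 and GBP1P1, a pseudogene whose reads may come from its close copy GBP1, by 1.37 ± 0.27. AXL, a receptor kinase that binds GAS6, rose from 6428 ± 160 to 11560 ± 491 normalised counts (mean ± SD, n = 3; log2 fold change 0.85, SE 0.11, edgeR adjusted p = 1.79e-05).

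The falls outside the lists were of many kinds. STC1, the secreted glycoprotein stanniocalcin, had 1035, 1038 and 1088 normalised counts with TSPAN7 IgA and 2353, 2018 and 2835 in untreated cells (log2 fold change -1.19, SE 0.13, edgeR adjusted p = 1.99e-06). BOC, a co-receptor of Hedgehog ligands, had 584, 504 and 594 against 1200, 1250 and 1262 (log2 fold change -1.14, SE 0.094, edgeR adjusted p = 3.73e-08). PLEKHS1 fell by 1.43 (SE 0.11), FAM46C, a poly(A) polymerase, by 1.34 (SE 0.13), PPP1R16B, a regulator of protein phosphatase 1, by 1.28 (SE 0.20) and SFTPD, the collectin surfactant protein D, by 1.18 (SE 0.14). The potassium channel KCNK2, the urea transporter SLC14A1, the protease ADAMTS8, the Wnt inhibitor APCDD1, the secreted ANGPTL2, CCDC146, the lysophosphatidic acid receptor LPAR3 and the protocadherin PCDH17 fell by between 0.95 and 1.16. The same holds for 3 long transcripts with clone names, AC109642.1, AC005082.12 and RP11-400N13.3, which fell by 1.16, 1.00 and 0.96.

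**Figure D4:**
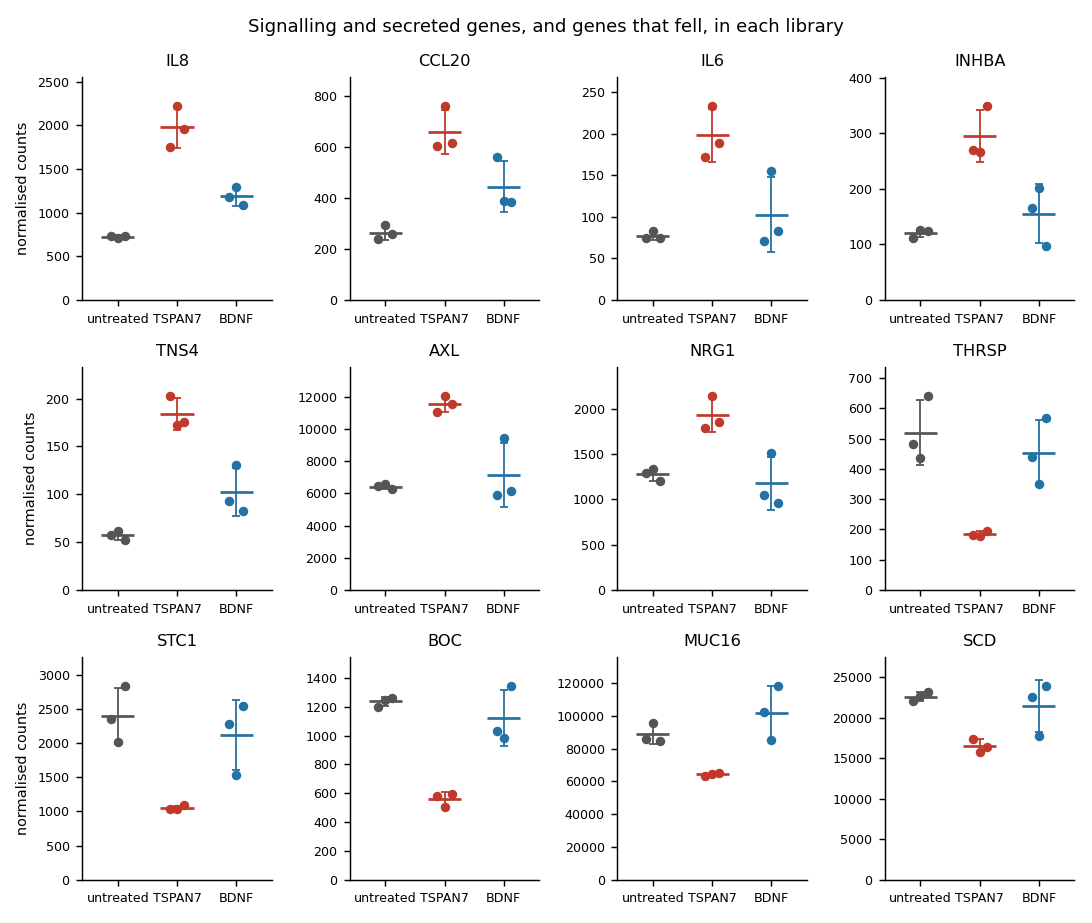
Normalised counts of 12 secreted, signalling and metabolic genes in each library of the series, with the mean (bar) and SD (error bars) of the 3 libraries of untreated cells (grey), TSPAN7 IgA (red) and BDNF IgA (blue), each vertical axis starting at 0. The TSPAN7 IgA libraries lie outside the untreated range in every panel, while the ranges of the BDNF IgA and untreated libraries overlap for IL6, INHBA, AXL, NRG1, THRSP, STC1, BOC, MUC16 and SCD.

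The comparison with BDNF IgA asked which of these changes differ between the IgAs against different antigens. The antigen, the B cell clone and the preparation cannot be told apart in it. It was tested directly, in the same fit, and it shares the TSPAN7 IgA libraries with the comparison above. Of 18732 genes 641 were higher with TSPAN7 IgA than with BDNF IgA (3.42%) and 843 lower (4.5%). These counts moved with single libraries. They fell to 196 and 286 without BDNF IgA replicate 3, to 245 and 384 without BDNF IgA replicate 1, to 196 and 308 without TSPAN7 IgA replicate 2 and to 342 and 457 without TSPAN7 IgA replicate 3, and rose to 1554 and 1722 without BDNF IgA replicate 2. Calls that held in all 6 such fits numbered 159 higher and 246 lower. With only these 6 libraries in the fit 427 were higher and 629 lower.

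No interferon gene was called higher with TSPAN7 IgA than with BDNF IgA. Of the 134 tested, 0 were higher by edgeR (unadjusted 6, DESeq2 0) and 22 lower, and their median difference was -0.11. The calls of 5 of these 22 held in all 6 fits that left out a library, namely IFITM1, IFITM3, TRIM22, GBP5 and CD74, which were listed after their values were seen. IFI44L had 4022, 3535 and 4684 normalised counts with BDNF IgA, and the TSPAN7 IgA level was lower by 0.31 (SE 0.077, edgeR adjusted p = 0.0164). This call was kept in 1 of the 6 fits without a library, that without BDNF IgA replicate 2, and the edgeR adjusted p of the other fits ran from 0.0525 to 0.146. ISG15 had 5706, 5596 and 6007 with BDNF IgA, and the difference of -0.019 (SE 0.056) was not called. IFIT1 and MX1 were not called either, with differences of 0.018 (SE 0.073) and -0.12 (SE 0.071). IFITM1 and TRIM22 were lower with TSPAN7 IgA by 0.43 (SE 0.072) and 0.49 (SE 0.088).

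Secreted and signalling genes were among those higher with TSPAN7 IgA than with BDNF IgA. IL8 had 1176, 1300 and 1087 normalised counts with BDNF IgA, below all 3 TSPAN7 IgA libraries, a difference of 0.74 (SE 0.076, edgeR adjusted p = 8.89e-06). IL6, INHBA and IGFBP1, a binding protein of insulin-like growth factors, were higher by 0.94, 0.93 and 0.88 (SE 0.21, 0.18 and 0.17). The call of IL6 was lost without BDNF IgA replicate 1 and without TSPAN7 IgA replicate 2, with differences of 0.74 and 0.81 (edgeR adjusted p = 0.0571 and 0.069). EREG and NRG1 were higher by 0.72 and 0.71, and TNS4, AXL and the long RNA CCAT1 by 0.85, 0.69 and 0.84. The call of EREG was lost without BDNF IgA replicate 3 and without TSPAN7 IgA replicate 2, with differences of 0.63 and 0.68 (edgeR adjusted p = 0.0825 and 0.066). AXL had 5904, 9466 and 6141 normalised counts with BDNF IgA, of which the second library stood apart from the others. Of 10 chemokines 4 were higher and 0 lower (unadjusted 1), and 3 of the calls held without each library in turn. DUSP5 was higher by 0.43 (SE 0.073).

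Genes lower than with BDNF IgA included several of the falls against untreated cells. THRSP had 441, 349.6 and 568 normalised counts with BDNF IgA and STC1 2275, 1539 and 2539, and TSPAN7 IgA was lower by 1.30 (SE 0.16) and 1.01 (SE 0.13). SFTPD, PPP1R16B, APCDD1, ANGPTL2 and ATP6V1B1, a subunit of the proton pump, were lower by between 1.01 and 1.59, and ACSL5, SLC14A1 and RP11-400N13.3 by 1.65, 1.60 and 1.48. ACSL5, which activates fatty acids, fell with TSPAN7 IgA (-0.71 ± 0.15 against untreated cells) and had 0.94 with BDNF IgA on the same scale. Of 16 acute-phase and complement genes 8 were lower than with BDNF IgA and 0 higher (unadjusted 0), 6 of the lower ones in all fits that left out a library, and of 18 serous carcinoma genes 10 were lower and 1 higher, 8 of the lower ones in all such fits. MUC16 was lower by 0.66 (SE 0.076). Of 25 histone genes 17 were higher than with BDNF IgA and 0 lower (unadjusted 0), 11 of them in all fits that left out a library. For DNA replication genes 11 of 26 were higher, 1 of them in all such fits, for mitosis genes 7 of 25 and 1, and for heat shock genes 8 of 14 and 0. Against untreated cells, list medians were -0.092 with TSPAN7 IgA and -0.33 with BDNF IgA for histone genes. They were 0.088 and -0.13 for DNA replication, -0.0046 and -0.13 for mitosis, and 0.015 and -0.17 for heat shock genes. For the acute-phase and complement list they were 0.077 and 0.59, and for the serous carcinoma list -0.13 and 0.14.

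The comparison with natural human IgA asked how a response to an antigen-specific IgA differs from that to IgA of no set specificity. The groups belonged to different series with different untreated cells, so each response was taken against the untreated cells of its own series, in 1 fit of all 18 libraries. The antibody and the series cannot be told apart beyond that. Non-specific IgA replicate 3 stood apart, with 19.1% of its counts from mitochondrial genes against 5.75% and 7.4% in replicates 1 and 2. It had 16062 genes at 10 counts or more. Many differences are therefore given with and without it, and the others include it. Of 19727 genes tested, 1712 had a more positive response to TSPAN7 IgA (8.68%) and 1696 a more negative one (8.6%), and without that library 2007 and 2050. Without non-specific IgA replicate 2 there were 2865 and 2301. Scaling by library size alone gave 2762 and 772, so that 78.2% of the calls were positive against 50.2%, and it moved the median difference of all genes from 0.023 to 0.22. Directions below are relative to that shift.

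Interferon genes responded more positively to TSPAN7 IgA. Over the interferon lists 54 differences were positive and 15 negative. Of the 27 antiviral effectors tested here 17 had a more positive response and 1 a more negative one, or 21 and 1 without replicate 3, and of the IFIT and IFITM genes it was 6 of 7 either way. IFI44L had a response of -0.63 ± 0.18 to non-specific IgA and 2.61 ± 0.089 to TSPAN7 IgA, a difference of 3.24 (SE 0.23, edgeR adjusted p = 9.37e-09; 3.11 without replicate 3). IFIT1 and MX1 had responses of -0.57 ± 0.12 and -0.36 ± 0.12 to non-specific IgA. Their differences were 2.40 and 2.30 (2.37 and 2.25 without replicate 3). ISG15 and IFIH1 had responses of 0.45 ± 0.11 and -0.071 ± 0.11 to non-specific IgA. Their differences were 1.91 and 1.00 (1.78 and 0.94 without replicate 3). The interferon genes together had a median response of 0.0068 to non-specific IgA. List medians of that response were -0.22 for IFIT and IFITM genes and -0.092 for antiviral effectors. They were 0.46 for the guanylate-binding protein and interferon gamma list and 0.70 for MHC class I chains. MHC class I chains had 0 of 9 more positive (unadjusted 0) and 3 more negative, or 2 without replicate 3.

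Of 10 chemokines 5 had a more negative response to TSPAN7 IgA than to non-specific IgA and 1 a more positive one, with or without replicate 3. IL8 had a response of 6.84 ± 0.25 to non-specific IgA, far above its 1.45 ± 0.079 with TSPAN7 IgA (difference -5.40, SE 0.30, edgeR adjusted p = 4.34e-10; -5.31 without replicate 3). CCL20, TNF and IL6 had responses of 6.39 ± 0.23, 5.36 ± 0.28 and 5.19 ± 0.28 to non-specific IgA. Of 18 interleukins and cytokines 12 had a more negative response to TSPAN7 IgA and 2 a more positive one, or 12 and 1 without replicate 3, and of 15 NF-kB genes 10, or 11 without it. DUSP5 had responses of 0.59 ± 0.073 to TSPAN7 IgA and 3.41 ± 0.11 to non-specific IgA. The cholesterol, hypoxia and endoplasmic reticulum lists gave 18 of 25, 15 of 21 and 13 of 16 more negative and 0 more positive (unadjusted 0 in each), or 18, 14 and 14 without replicate 3. STC1 fell with TSPAN7 IgA by 1.19 and had a response of 1.89 ± 0.24 to non-specific IgA.

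**Figure D5:**
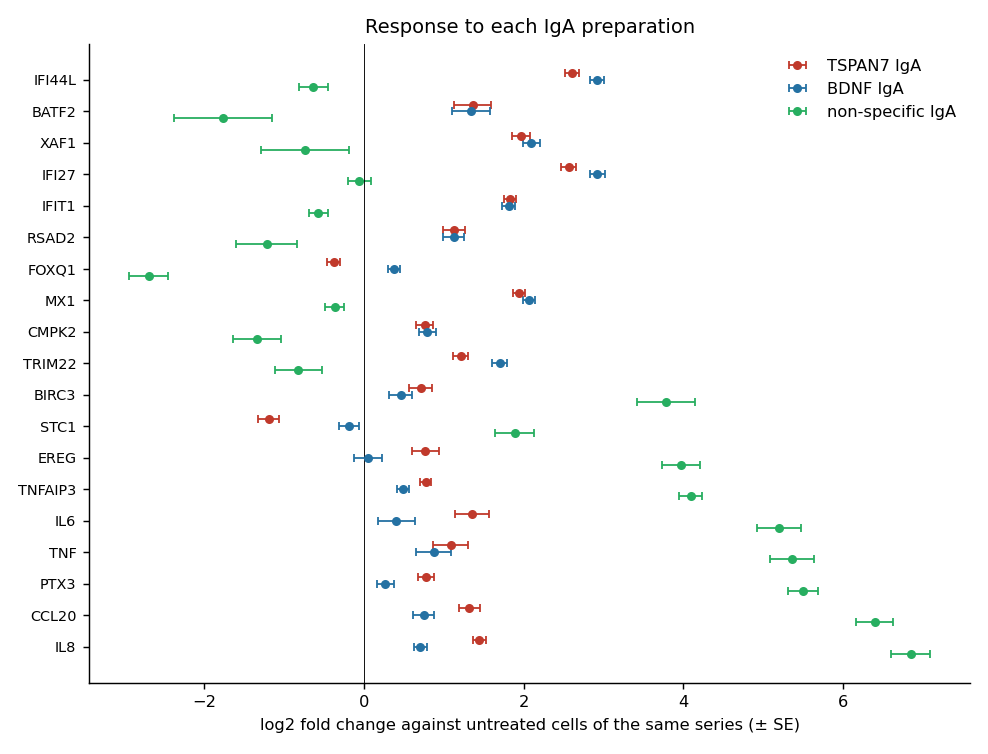
Log2 fold change relative to untreated cells of the same series (± SE) for 19 of the stable calls against untreated cells that differed most between the responses to TSPAN7 IgA (red) and non-specific IgA (green), with BDNF IgA (blue) beside them. The upper 10 genes lie below 0 with non-specific IgA, although IFI27 (-0.053, SE 0.14) lies within its SE of 0. All of them except FOXQ1 lie above 0 with TSPAN7 IgA and BDNF IgA. The lower 9, from BIRC3 to IL8, lie furthest to the right with non-specific IgA.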

How the data were processed

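The deposited tables hold raw counts per gene, which the authors made from paired-end reads. Per the labels and the study's methods, reads were trimmed with cutadapt 1.8.1 and aligned to GRCh37 (hg19). The submitters' processing notes name HTSeq 0.6.1, the study's methods name featureCounts with Gencode annotation, and whether counting used strand is not given in the sources used here. The labels give 24 h of antibody, as does the study's main text, while captions of its supplementary data give a shorter time for every antibody. RNA libraries were made with the Ovation Human FFPE RNA-Seq kit.

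From these counts, 2055 of 57820 exact duplicate rows were dropped, and groups and replicate numbers came from the sample titles. The 9 libraries of the series with TSPAN7 IgA entered 1 edgeR 4.0.16 quasi-likelihood fit (TMM scaling, filterByExpr, R 4.3.3) with Benjamini-Hochberg adjustment over all genes tested. The difference from non-specific IgA used all 18 libraries. The SE was obtained from the log2 fold change and the F statistic, as the size of the first over the root of the second. On simulated counts for the comparison with untreated cells, 87.5% of 200 genes changed by a log2 of 1.5 were recovered and 4.89% of calls were false, over 18406 genes. Most called changes in the data were smaller than this, and smaller changes were not simulated.

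Named were the 20 largest rises and falls among stable calls with at least 50 normalised counts in the higher group and no overlap, up to 5 stable calls per list and direction, uncalled members that the text needed, 10 genes per direction in each further comparison, and TSPAN7, PIGR, BDNF, DUSP5, IL8, interferons and their receptors. CA9, LRRC32, CD274, IL1B, IRF9, FOXJ1, STAT2, IRF1, FASN and ATF4, called but not stable, were chosen after their values were seen. The members and lists were chosen with earlier results of these data known. Alternatives were DESeq2 1.42.0, other scalings and filters, fewer libraries, a replicate block and duplicate rows kept. Promoter sequences came from RefSeq (GRCh38.p14) and gene positions from GENCODE on GRCh37, which held 14646 of the genes tested under their symbol and 1099 under an older one. The libraries of non-specific IgG were used only to estimate the spread. Some genes that the rule names are not reported here.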

Additional observations from a re-analysis of the deposited data

Results flagged for a closer look

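The response to TSPAN7 IgA differed from the response to non-specific IgA, each against the untreated cells of its own series, in 1712 genes with a more positive and 1696 with a more negative value (edgeR quasi-likelihood test of the difference itself, adjusted p under 0.05). The antibody and the series cannot be told apart. Among stable calls against untreated cells, the most positive differences on the log2 scale were 3.24 for IFI44L, 3.12 for BATF2, 2.71 for XAF1, 2.62 for IFI27, 2.40 for IFIT1, 2.34 for RSAD2, 2.32 for FOXQ1, 2.30 for MX1, 2.10 for CMPK2 and 2.03 for TRIM22. Among the most negative were -5.40 for IL8, -5.07 for CCL20, -4.71 for PTX3, -4.27 for TNF, -3.84 for IL6, -3.31 for TNFAIP3, -3.20 for EREG, -3.08 for STC1 and -3.07 for BIRC3. These genes kept their direction and their call without each of the 12 libraries compared in turn, but sizes moved. Without non-specific IgA replicate 3 the differences of RSAD2, XAF1 and BIRC3 were 3.12, 3.53 and -2.36.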

How the results depend on the processing

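No named gene changed direction against untreated cells under the alternatives run. The same held, within each further comparison, for the 20 genes named for it. Other named genes could change direction there. The difference of HERC5 from non-specific IgA, which was not called, moved from -0.13 to 0.13 without non-specific IgA replicate 3. For TSPAN7 IgA against untreated cells, leaving out 1 of the 6 libraries gave 429 to 689 higher and 328 to 682 lower, a fit of the 6 compared libraries alone gave 1168 lower, and the fit without BDNF IgA replicate 2, added after seeing the data, 1156 higher and 1148 lower. DESeq2 called 868 higher and 829 lower, and upper quartile scaling 738 and 897, which turned the balance, with 45.1% of the calls higher against 52.2%. At an adjusted p under 0.01 there were 429 higher and 342 lower, and, added after seeing the data, 223 and 355 against BDNF IgA and 753 and 885 for the difference from non-specific IgA. Against BDNF IgA, leaving out 1 library gave 196 to 1554 higher and 286 to 1722 lower, and a fit of those 6 libraries alone gave 427 higher. For the difference from non-specific IgA, leaving out 1 library gave 1235 to 2865 positive and 1240 to 2301 negative, the highest of both without non-specific IgA replicate 2, and library size scaling gave 2762 and 772. Replicate numbers gave little sign of pairing. Same-numbered TSPAN7 IgA and untreated libraries had correlations of their deviations of 0.011, 0.0146 and 0.0124, each the highest for its library but all under 0.1. Among BDNF IgA libraries, TSPAN7 IgA replicate 1 correlated better with another number (0.0533) than with its own (0.0178). TSPAN7 IgA replicates 2 and 3 correlated best with their own (0.0887 and 0.0209). The replicate block gave 903 higher and 856 lower, 773 and 955 against BDNF IgA, and 1745 and 1694 for the difference. Intervals and tests rest on 3 libraries a group.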
